A study of Homo sapiens with 26 samples.

Results

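The 10 genes described here encode surface and adhesion proteins of gut-type and pancreatic epithelium: the cadherins CDH1, CDH3 and CDH17, the carcinoembryonic antigen family members CEACAM1, CEACAM5 and CEACAM6, the A33 antigen gene GPA33, the tetraspanin gene TSPAN8, EPCAM and the galectin gene LGALS4. They were chosen by symbol, through the Ensembl identifier that carries it, and each symbol had 1 identifier in each count table, so that they are 10 of 62703 identifiers in the Panc10.05 and BxPC3 tables and 10 of 62754 in the ASPC1 table. The 26 RNA-seq libraries come from 3 long-established lines of human pancreatic ductal adenocarcinoma (PDAC) in which the expression of HNF4A, the gene of the nuclear receptor HNF4α, had been manipulated. HNF4A is transcribed from 2 promoters, and the libraries compare isoforms or guides named P1 and P2 after them.

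Panc10.05 and BxPC3 cells expressed a doxycycline-inducible HNF4α isoform, P1-a2 or P2-a8, or a control construct labelled NC, which by the titles is GFP-NC in Panc10.05 and EV-NC in BxPC3. Every one of these groups, controls included, received doxycycline, at 500 ng/mL in all BxPC3 groups and, in Panc10.05, at 25 ng/mL in the P1-a2 and NC groups and 12.5 ng/mL in the P2-a8 group. In Panc10.05 the isoform and the dose therefore changed together, and P2-a8 also differed from its control in dose, so their parts cannot be told apart. ASPC1 cells carried a control guide (sgNC), a guide named for P1 (sgP1E or sgP1J), for P2 (sgP2D or sgP2G) or for both (sgDual2 or sgDual3), with no doxycycline listed. The labels do not give the guides' sequences or say whether they cut or repress. Each construct and each guide had 2 libraries, so that sgP1, sgP2 and sgDual had 4 libraries each. The labels do not say whether replicates were separate cultures, and the p-values below measure only the spread between these libraries.

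Classical cadherins such as CDH1 (E-cadherin) and CDH3 (P-cadherin) hold neighbouring epithelial cells together by binding the same protein on the next cell and tie to the actin skeleton through catenins, whereas CDH17 (liver-intestine cadherin) has only a short cytoplasmic tail and does not bind catenins. CEACAM5 and CEACAM6 are glycosylphosphatidylinositol-anchored proteins of the epithelial surface, and CEACAM1 is a transmembrane relative with a signalling tail in its long forms. GPA33 is an immunoglobulin-family antigen of intestinal epithelium, TSPAN8 organises membrane microdomains, EPCAM is a homophilic epithelial adhesion molecule that also binds claudins, and LGALS4 is a secreted galectin that crosslinks glycoproteins and glycolipids of the gut surface. In PDAC, several of these genes mark tumours of the classical type, and HNF4α is known as a regulator of the endodermal epithelial programme.

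The adhesion genes are spread over several chromosomes, and some of them are neighbours. On GRCh38 (GENCODE v29 gene bounds), CDH3 occupies chromosome 16 from 68636189 to 68722616 and CDH1 follows on the same strand from 68737225 to 68835548, with 14.6 kb and no coding gene between them. CEACAM5 (chromosome 19, 41708585 to 41729798) and CEACAM6 (41750977 to 41772208) are also neighbours on the same strand, 21.2 kb apart, and CEACAM1 (42507304 to 42561234) lies 735.1 kb further on, on the opposite strand. LGALS4 (38801671 to 38813364) is on chromosome 19 as well, GPA33 is on chromosome 1 (167052836 to 167166479), TSPAN8 on chromosome 12 (71125085 to 71441898) and EPCAM on chromosome 2 (47345158 to 47387601). The 3 CEACAM genes are close paralogs, and how reads that match several of them were counted is not given in the sources used here, so that values of CEACAM5 and CEACAM6 could in part be exchanged. The strand setting of the counting is not given either, and GPA33, TSPAN8 and CEACAM1 overlap genes of the other strand (DUSP27, LGR5 and LIPE-AS1), whose reads could not be told apart without it.

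Upstream sequences are shown for 5 of these genes because they include paralogs that moved in opposite directions in cells with the sgDual guides. They are the 250 bases before the RefSeq start (GRCh38.p14), written 5′ to 3′ along the gene, and 6 of the 10 genes had an entry. Capitals mark the E-box CAGGTG or its reverse complement CACCTG, a motif bound by the ZEB and SNAI repressors. The stretches are chr19:41708376-41708625 (CEACAM5, plus strand), chr19:41755280-41755529 (CEACAM6, plus strand), chr19:42528482-42528731 (CEACAM1, minus strand), chr1:167090378-167090627 (GPA33, minus strand) and chr19:38812946-38813195 (LGALS4, minus strand).
CEACAM5: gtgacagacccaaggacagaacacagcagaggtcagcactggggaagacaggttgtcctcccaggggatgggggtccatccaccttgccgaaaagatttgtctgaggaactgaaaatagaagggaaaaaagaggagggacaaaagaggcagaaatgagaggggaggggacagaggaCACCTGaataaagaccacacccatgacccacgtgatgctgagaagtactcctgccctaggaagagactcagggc
CEACAM6: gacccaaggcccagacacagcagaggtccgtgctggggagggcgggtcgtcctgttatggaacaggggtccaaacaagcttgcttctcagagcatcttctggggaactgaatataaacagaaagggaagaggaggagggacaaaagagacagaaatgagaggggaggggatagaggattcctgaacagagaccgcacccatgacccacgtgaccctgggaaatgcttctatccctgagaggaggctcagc
CEACAM1: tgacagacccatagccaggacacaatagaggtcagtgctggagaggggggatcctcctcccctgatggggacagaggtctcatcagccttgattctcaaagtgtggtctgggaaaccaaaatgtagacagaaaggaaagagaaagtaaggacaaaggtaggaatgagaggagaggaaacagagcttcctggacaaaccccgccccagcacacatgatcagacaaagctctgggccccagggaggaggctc
GPA33: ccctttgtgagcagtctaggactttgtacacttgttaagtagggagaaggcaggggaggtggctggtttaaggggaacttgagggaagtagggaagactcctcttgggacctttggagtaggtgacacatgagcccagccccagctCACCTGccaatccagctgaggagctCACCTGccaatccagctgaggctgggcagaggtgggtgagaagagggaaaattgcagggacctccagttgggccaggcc
LGALS4: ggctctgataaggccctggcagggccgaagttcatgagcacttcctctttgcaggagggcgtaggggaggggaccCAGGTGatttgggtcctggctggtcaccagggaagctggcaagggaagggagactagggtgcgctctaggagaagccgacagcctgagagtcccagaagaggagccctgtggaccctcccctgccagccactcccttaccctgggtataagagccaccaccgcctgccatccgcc

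In a global alignment of these stretches, CEACAM5 and CEACAM6 were identical in 194 of 260 columns (74.6%), CEACAM1 and CEACAM6 in 68.2% and CEACAM1 and CEACAM5 in 66.2%. The other pairs among the 5 genes ranged from 46.3% to 53.9%. Over the 300 bases searched per start (250 before and 50 after), 3 of the 7 starts of these genes held the E-box, against 20.59% of all 35116 starts in the table. GPA33 held it 2 times, from 104 and from 79 bases before the start, within a repeat that is visible in the sequence, and LGALS4 and CEACAM5 held it 1 time each, from 175 and from 74 bases before the start. The core of an HNF4 site, CAAAGTCCA on either strand, was found at none of the 7 starts and at 0.38% of all starts. The CDX core TTTATG on either strand was found only at the 2 starts of TSPAN8, whose windows overlap and share that match, and at 10.58% of all starts. These are matches of letters and carry no evidence of binding.

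The libraries held between 34618745 and 46827673 counts (Panc10.05), 26369154 and 37483772 (BxPC3), and 26079388 and 50662077 (ASPC1). Levels below are CPM, counts scaled to a common library size, after TMM scaling of each table, given for replicate 1 and then replicate 2. In an edgeR quasi-likelihood test on each table, a gene is said to rise, fall or change when its p-value, adjusted by Benjamini and Hochberg's method over all genes tested, was under 0.05. SE is the standard error of a log2 fold change. The 5 duct markers KRT7, KRT8, KRT18, KRT19 and MUC1 summed to between 5393 and 17337 CPM over all libraries, but the duct keratin KRT7 was at 0.50 to 8.47 CPM in ASPC1, against 961 to 1584 in Panc10.05 and 1648 to 2020 in BxPC3, and MUC1 went down to 3.36 CPM in ASPC1. Of the leukocyte markers, PTPRC stayed at or under 5 counts and CD3E at or under 21 in every library, CD68 reached 9.35 CPM in Panc10.05 and 6.06 in ASPC1, and CD14 reached 3.47 CPM in ASPC1. The fibroblast marker LUM, at 130.4 to 298.8 CPM, made up nearly all of the fibroblast list's sum of 131.5 to 300.1 CPM in ASPC1, where COL1A1 and DCN stayed under 1 CPM. HNF4A itself was at 0.24 and 0.06 CPM in the Panc10.05 control, 10.7 and 12.98 with P1-a2 and 37.7 and 37.6 with P2-a8. It was at 1.08 and 0.46 CPM in the BxPC3 control, 9.76 and 11.6 with P1-a2 and 12.6 and 14.2 with P2-a8. In ASPC1 it was at 206 and 220 CPM with sgNC, 109 to 146 with the sgP1 guides, 76.8 to 93.9 with the sgP2 guides and 3.19 to 13.6 with the sgDual guides. Counts per gene do not separate transcripts of its P1 and P2 promoters.

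The control libraries of the 3 lines carried different sets of these adhesion genes. In ASPC1 all 10 were detected, and per length (CPM per kb of merged exons) CDH17 was the highest at 507 ± 4.62 (SD, n = 2), followed by CEACAM6 at 339 ± 31.6, EPCAM at 224 ± 36.0, TSPAN8 at 216 ± 43.0 and LGALS4 at 125 ± 5.28. EPCAM and TSPAN8 overlapped in their libraries, and CDH17 stood above CEACAM6 in both. GPA33 (40.1 ± 5.64) and CEACAM1 (36.5 ± 2.23) overlapped too, and CDH1 (8.07 ± 3.25), CEACAM5 (2.42 ± 1.27) and CDH3 (1.31 ± 0.27) were the lowest. In BxPC3 the order was CEACAM6 at 256 ± 0.39, CDH1 at 74.9 ± 0.29, CEACAM5 at 54.2 ± 1.09, CDH3 at 50.5 ± 2.56, EPCAM at 42.1 ± 2.80 and CEACAM1 at 15.8 ± 0.93 CPM per kb. TSPAN8 (0.68 ± 0.02) and LGALS4 (0.19 ± 0.07) were far lower per length than those 6, GPA33 had at most 3 counts and CDH17 had none. Panc10.05 showed mainly EPCAM, at 124 ± 2.23 CPM per kb, CDH1 at 24.8 ± 1.92, CEACAM1 at 7.12 ± 0.10 and CDH3 at 2.36 ± 0.02. CEACAM6 was at 0.15 ± 0.11 there, TSPAN8 had 0 and 4 counts, and CDH17, CEACAM5, GPA33 and LGALS4 had at most 2 counts in either control library. The tables were scaled separately, so levels are not compared between lines by a test.

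**Figure D1:**
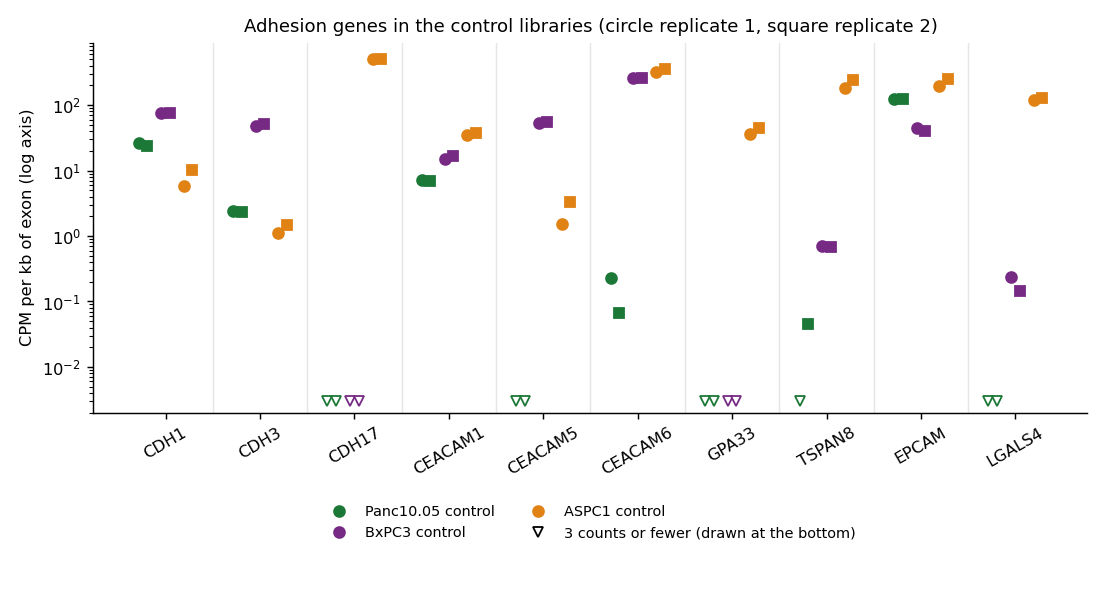
Level of each adhesion gene in the control libraries, in CPM per kb of exon on a log axis, by cell line (colour) and replicate (circle or square). Open triangles at the bottom stand for libraries with 3 counts or fewer, which hold all CDH17 and GPA33 controls of Panc10.05 and BxPC3.

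Because genes at such levels were removed by the count filter, 7 of the 10 genes were tested in Panc10.05 (not CDH17, CEACAM5 and TSPAN8), 8 in BxPC3 (not CDH17 and GPA33) and all 10 in ASPC1. CDH17 stayed at no more than 2 counts in every library of Panc10.05 and BxPC3, with either isoform, and a count of 3 was taken as the floor of detection per library. CEACAM5 stayed at 0 or 1 count in all 6 Panc10.05 libraries.

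With P1-a2 in Panc10.05, CDH1 and CEACAM1 fell while CDH3 and EPCAM rose. CEACAM1 was at 39.7 and 39.0 CPM in the control and at 4.37 and 4.89 CPM with P1-a2, a fall to 11.8% of the control that leaves a wide gap between the groups. Its log2 fold change was -3.08 (SE 0.10, adjusted p = 3.63e-28, edgeR). CDH1 was at 161 and 145 CPM in the control and 96.1 and 105 with P1-a2 (log2 fold change -0.61, SE 0.06, adjusted p = 7.17e-11). CDH3, the neighbour of CDH1, moved the other way, from 14.8 and 14.7 CPM to 30.4 and 38.9 (log2 fold change 1.24, SE 0.09, adjusted p = 2.74e-13). EPCAM was at 309 and 317 CPM in the control and 423 and 442 with P1-a2 (0.47, SE 0.06, adjusted p = 5.05e-09). In these 4 genes no library of 1 group reached the other group, as in 79.8% of all genes tested.

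The remaining genes tested in Panc10.05 were near the limit of detection. CEACAM6 reached the level that the count filter asks of 2 libraries (0.248 CPM) with both isoforms and not in the control. GPA33 and LGALS4 reached it in both libraries only with P2-a8, and neither with P1-a2 nor in the control. These genes could therefore enter the test only by being higher with an isoform, and their rise is given as a description. CEACAM6 had 29 and 7 counts in the control (0.70 and 0.20 CPM) and 69 and 66 with P1-a2 (1.77 and 1.44 CPM; log2 change 1.76, SE 0.34, adjusted p = 3e-05). GPA33 had 2 and 0 counts in the control and 10 and 11 with P1-a2, at least 3.12-fold higher when the control is set to the floor of 3 counts per library (adjusted p = 0.00291). LGALS4 had 1 count in each control library and 6 and 15 with P1-a2, at least 3.02-fold higher (adjusted p = 0.0031). Without P1-a2 replicate 2 the LGALS4 change missed the threshold (adjusted p = 0.101). Of the 4 adhesion genes at that level in both groups, 2 rose and 2 fell, where 62.0% of the 17247 genes tested changed in this comparison and 64.6% of those at that level in both groups. The median log2 fold change of the 4 was -0.07, against 0.00 over all genes at that level in both groups.

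P2-a8 in Panc10.05 raised CDH1, CDH3, CEACAM1 and EPCAM, the 4 adhesion genes at the filter's level in both groups, among them both that P1-a2 lowered. CDH1 was at 211 and 229 CPM with P2-a8, above its 161 and 145 CPM in the control (log2 fold change 0.52, SE 0.06, adjusted p = 5.42e-09). CDH3 was at 43.4 and 47.3 CPM (1.62, SE 0.09, adjusted p = 8.89e-16) and EPCAM at 448 and 418 CPM (0.47, SE 0.06, adjusted p = 1.14e-08). CEACAM1 was at 46.7 and 44.0 CPM, just above the control's 39.7 and 39.0, and its small rise (0.21, SE 0.08, adjusted p = 0.024) missed the threshold in DESeq2 (0.0951). The CEACAM1 rise was also lost without P2-a8 replicate 1 (0.199), control replicate 1 (0.0521) or control replicate 2 (0.1). The 3 genes that entered the test only through the isoform libraries were higher here too. CEACAM6 was at 1.35 and 1.80 CPM (1.73, SE 0.34, adjusted p = 7.82e-05). GPA33 had 25 and 36 counts, at least 9.74-fold above the floor (adjusted p = 9.45e-07), and LGALS4 had 13 in each library, at least 4.05-fold above it (adjusted p = 0.00101). TSPAN8 was not tested and had 13 and 8 counts with P2-a8, 5 and 5 with P1-a2 and 0 and 4 in the control. Of the 17247 genes tested, 46.2% changed, and of those at the filter's level in both groups, 48.2%. The median log2 fold change was 0.50 over the 4 adhesion genes and -0.02 over all genes at that level in both groups.

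Set directly against P2-a8, P1-a2 gave lower levels of 3 of the 5 genes at the filter's level in both groups, with 46.9% of all genes tested changed (49.7% of those at that level in both groups). CEACAM1 differed most, with a log2 change of -3.29 (SE 0.09, adjusted p = 2.09e-28), and CDH1 was 2.19-fold lower with P1-a2 (-1.13, SE 0.06, adjusted p = 4.73e-18). CDH3 was 1.30-fold lower (-0.38, SE 0.09, adjusted p = 0.000449), a call lost without P1-a2 replicate 1 (-0.22, adjusted p = 0.0657). GPA33, which reached the filter's level only with P2-a8, was 3.03-fold lower (-1.60, SE 0.46, adjusted p = 0.0041), a call lost in DESeq2 (0.0804) and without P2-a8 replicate 2 (0.179). EPCAM, CEACAM6 and LGALS4 did not pass the threshold, and their libraries overlapped between the isoforms. Over the 5 genes the median log2 fold change was -0.38, against 0.00 over all genes at that level in both groups.

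In BxPC3, both isoforms lowered CEACAM5 and CEACAM6, the neighbouring pair, and raised CDH1, CDH3 and EPCAM. CEACAM5 was at 179 and 184 CPM in the control, 56.6 and 45.6 with P1-a2 and 95.7 and 78.6 with P2-a8. Its log2 fold change was -1.83 with P1-a2 (SE 0.12, adjusted p = 1.81e-05) and -1.06 with P2-a8 (SE 0.12, adjusted p = 0.00152). CEACAM6 was at 782 and 780 CPM in the control, 555 and 549 with P1-a2 (log2 fold change -0.50, SE 0.05, adjusted p = 1.72e-05) and 583 and 586 with P2-a8 (-0.42, SE 0.05, adjusted p = 0.000313). Both isoform groups lay wholly under the control for these 2 genes, as for 33.5% (P1-a2) and 22.7% (P2-a8) of all genes tested, and CEACAM5 was lower with P1-a2 than with P2-a8 (-0.77, SE 0.12, adjusted p = 0.00317).

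EPCAM in BxPC3 was at 111 and 101 CPM in the control, 174 and 166 with P1-a2 and 141 and 134 with P2-a8, so that the 3 groups did not overlap. Of all genes tested, 32.5% lay wholly above the control with P1-a2 and 27.7% with P2-a8. EPCAM rose 1.603-fold with P1-a2 (log2 fold change 0.68, SE 0.06, adjusted p = 1.37e-05) and 1.30-fold with P2-a8 (0.38, SE 0.06, adjusted p = 0.00419), the latter call lost without control replicate 2. The EPCAM level with P1-a2 also exceeded that with P2-a8 (0.30, SE 0.06, adjusted p = 0.00537). CDH1 was at 461 and 464 CPM in the control, 572 and 594 with P1-a2 (0.33, SE 0.05, adjusted p = 0.00044) and 525 and 539 with P2-a8 (0.20, SE 0.05, adjusted p = 0.0354). The CDH1 call for P2-a8 was lost without any of the 4 libraries compared (adjusted p from 0.143 to 0.261), with total counts alone (0.075) and with only the 2 groups in the fit (0.0502). CDH3 was at 304 and 326 CPM in the control, 372 and 435 with P1-a2 (0.36, SE 0.09, adjusted p = 0.0127) and 372 and 430 with P2-a8 (0.35, SE 0.09, adjusted p = 0.0481). The CDH3 call for P1-a2 was lost without control replicate 1 (0.095) or P1-a2 replicate 2 (0.0752). The CDH3 call for P2-a8 was lost without control replicate 1 (0.264), control replicate 2 (0.136) or P2-a8 replicate 2 (0.242), and with RLE size factors (0.0578).

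CEACAM1 in BxPC3 was at 83.6 and 90.9 CPM in the control, 95.1 and 105 with P1-a2 and 83.6 and 92.0 with P2-a8, and passed the threshold in no comparison of the main model. With the replicate number as a block, which the same-numbered BxPC3 libraries allow because they deviate together, CEACAM1 was higher with P1-a2 than in the control (adjusted p = 0.00185) and than with P2-a8 (0.00351). The block also brought CDH1 past the threshold between the isoforms (log2 fold change 0.13 without it and adjusted p = 0.00858 with it). Under the block the CDH3 calls held for P1-a2 (adjusted p = 7.05e-07) and P2-a8 (4.3e-06), as did the CDH1 call for P2-a8 (0.000703). TSPAN8, at 1.53 to 1.97 CPM in the 6 libraries, and LGALS4, at 0.38 to 1.01 CPM, passed the threshold in no BxPC3 comparison. GPA33 was not tested and had 1 and 3 counts in the control, 8 and 11 with P1-a2 (at least 2.83-fold higher) and 7 and 6 with P2-a8 (at least 1.98-fold higher).

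Counted over the 8 genes tested in BxPC3, 3 rose and 2 fell with P1-a2, where 32.0% of the 17635 genes tested changed, and 3 rose and 2 fell with P2-a8, where 6.99% changed. The genes called over the whole table with P2-a8 numbered 1232, and 495 without control replicate 2 and 2886 (16.4%) with the replicate block. The median log2 fold change of the 8 was 0.10 and 0.12, against -0.01 and 0.01 over all genes. Between the isoforms 1 was higher with P1-a2 and 1 lower (4 in all under the block), where 22.5% of all genes tested changed (34.0% under the block) and the median was -0.01 both over the 8 and over all genes. The comparisons with P1-a2 and with P2-a8 share their control libraries, within each line.

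**Figure D2:**
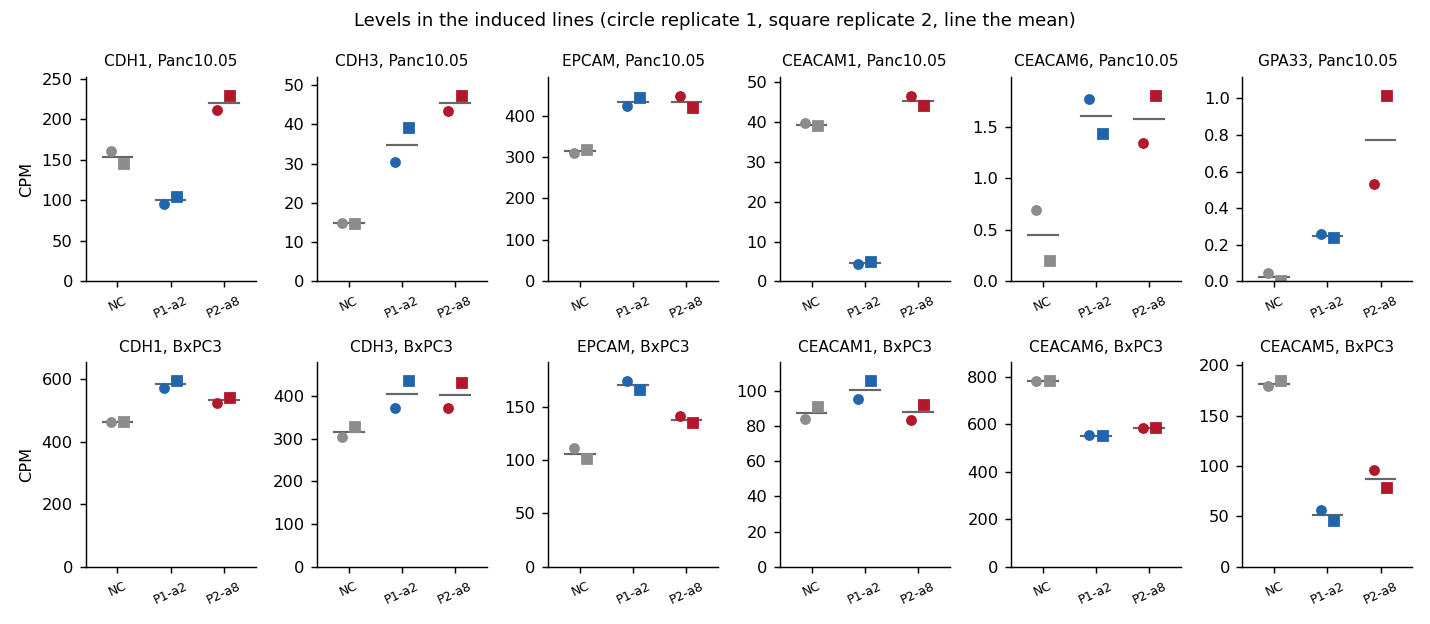
CPM of 6 adhesion genes in each library of Panc10.05 (top) and BxPC3 (bottom), for the control, P1-a2 and P2-a8, each panel with its own linear axis from 0 and a line at the group mean. CEACAM1 stands at 4.37 and 4.89 CPM with P1-a2 in Panc10.05 only, CDH1 lies under the control with P1-a2 in Panc10.05 and above it in BxPC3, and CEACAM5 is lower with both isoforms in BxPC3.

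Whether the 2 lines responded differently was tested as a difference of log2 fold changes (Panc10.05 minus BxPC3) in a joint model of the 12 libraries, in which 9 of the 10 genes were tested and 19372 genes in all. Line, doxycycline dose, control construct and the number at the start of the library titles change together in it. The response to P1-a2 differed for 5 of the 9 genes, with 36.4% of all genes tested past the threshold. CEACAM1 differed most (-3.27, SE 0.12, adjusted p = 1.41e-15), and CDH1, which fell in Panc10.05 and rose in BxPC3, differed by -0.93 (SE 0.09, adjusted p = 2.07e-08). CDH3 rose more in Panc10.05 (0.89, SE 0.17, adjusted p = 0.0015), and CEACAM6, scarce in Panc10.05 and abundant in BxPC3, rose in the first and fell in the second (2.26, SE 0.30, adjusted p = 1.9e-05). LGALS4 differed by 3.25 (SE 1.01, adjusted p = 0.0136) on at most 17 counts a library, a call lost without Panc10.05 control replicate 1 (0.0678) or P1-a2 replicate 2 (0.109). EPCAM did not pass (-0.21, SE 0.09, adjusted p = 0.0634).

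The response to P2-a8 differed between the lines for 3 of the 9 genes, all with the larger value in Panc10.05, with 23.5% of all genes past the threshold. These were CDH1 (0.32, SE 0.09, adjusted p = 0.01), CDH3 (1.27, SE 0.17, adjusted p = 0.000225) and CEACAM6 (2.12, SE 0.31, adjusted p = 9.66e-05). The CDH1 difference was lost without Panc10.05 control replicate 2 (0.0626) or P2-a8 replicate 2 (0.0522). The difference between the isoforms itself differed between the lines for 3 genes, where 22.3% of all genes passed: CEACAM1 (-3.47, SE 0.12, adjusted p = 2.75e-15), CDH1 (-1.26, SE 0.09, adjusted p = 1.1e-09) and EPCAM (-0.30, SE 0.08, adjusted p = 0.0138). The EPCAM call was lost without Panc10.05 P1-a2 replicate 1 (0.0722), Panc10.05 P2-a8 replicate 1 (0.0834) or BxPC3 P2-a8 replicate 2 (0.0516). CEACAM5, GPA33, LGALS4 and TSPAN8 did not reach the filter's level in every group of any of these contrasts, nor did CEACAM6 in the first and second. Without them the responses differed for 3 of 4 genes with P1-a2 and 2 of 4 with P2-a8, and the difference between the isoforms for 3 of 5, where 46.2%, 30.2% and 28.9% of all genes at that level in every group did. The median differences over these genes were -0.57, 0.26 and -0.38, against -0.04, -0.03 and -0.01 over all genes at that level.

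In ASPC1, where all 10 genes could be tested, the sgDual guides, with which HNF4A was lowest, split the adhesion genes: GPA33, CDH17, CEACAM1 and LGALS4 fell, and CEACAM5, CEACAM6 and TSPAN8 rose. GPA33 was at 116 and 141 CPM with sgNC, and at 12.7, 22.1, 14.7 and 20.5 CPM in the 4 sgDual libraries (sgDual2 replicates 1 and 2, then sgDual3). Its mean of 17.5 ± 4.51 CPM (SD, n = 4 libraries of 2 guides) was 7.34-fold lower than the control's 128 ± 18.1 (n = 2 libraries, log2 fold change -2.88, SE 0.20, adjusted p = 6.66e-07). CDH17, the most abundant of the 10 per length in the control, was at 1966 and 1991 CPM with sgNC and at 1008, 1093, 1341 and 1322 CPM with sgDual (log2 fold change -0.73, SE 0.10, adjusted p = 9.48e-05). LGALS4 was at 320 and 340 CPM with sgNC and between 191 and 196 CPM in all 4 sgDual libraries (-0.77, SE 0.10, adjusted p = 5.54e-05). CEACAM1 was at 193 and 211 CPM with sgNC and at 84.4, 101, 138 and 137 CPM with sgDual (-0.81, SE 0.19, adjusted p = 0.00406). For each of these 4 genes every sgDual library was under both sgNC libraries, as for 29.7% of all genes tested, and the call held without any 1 library.

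The genes that rose with sgDual rested more on single control libraries. CEACAM5 was at 5.10 and 11.1 CPM with sgNC and at 35.4, 65.4, 92.7 and 144 CPM with sgDual, 10.4-fold higher (log2 fold change 3.38, SE 0.72, adjusted p = 0.00388; 0.0699 without sgNC replicate 1). TSPAN8 was at 466 and 620 CPM with sgNC and at 935, 1042, 818 and 867 CPM with sgDual (0.75, SE 0.21, adjusted p = 0.0133; 0.181 without sgNC replicate 1). CEACAM6 was at 966 and 1102 CPM with sgNC and at 1920, 2104, 2203 and 2410 CPM with sgDual, 2.09-fold higher (1.06, SE 0.37, adjusted p = 0.0423). The libraries of CEACAM6 did not overlap, but its call was lost with the replicate block (0.0507) and without any of the 6 libraries in turn (0.0528 to 0.239). Its log2 fold change ranged from 0.96 to 1.17 over all settings tried. All sgDual libraries lay above both sgNC libraries for 29.8% of all genes tested. The calls of CEACAM5 and TSPAN8 held with the replicate block (adjusted p = 0.00194 and 0.000252). Beside this, the paralogs CEACAM5 and CEACAM6 rose while CEACAM1, further along the same chromosome, fell.

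EPCAM, CDH1 and CDH3 did not pass the threshold between sgDual and sgNC. EPCAM was at 499 and 628 CPM with sgNC and 466 to 534 CPM with sgDual, and CDH1 at 35.6 and 64.0 CPM with sgNC and 61.2 to 77.3 CPM with sgDual, so that both overlapped. CDH3 was at 6.94 and 9.34 CPM with sgNC and 3.47 to 5.72 CPM with sgDual (adjusted p = 0.199). It lay wholly under sgNC, as did 29.7% of all genes tested. CDH3 passed the threshold with only the 2 groups in the fit (0.00499) or with 7 groups by guide (0.00519). Altogether 3 of the 10 genes rose and 4 fell, where 35.6% of the 16992 genes tested changed. Without sgNC replicate 1, 4 of the 10 changed, and 15.7% of all genes tested. The median log2 fold change was -0.45 over the 10 genes and 0.00 over all genes.

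**Figure D3:**
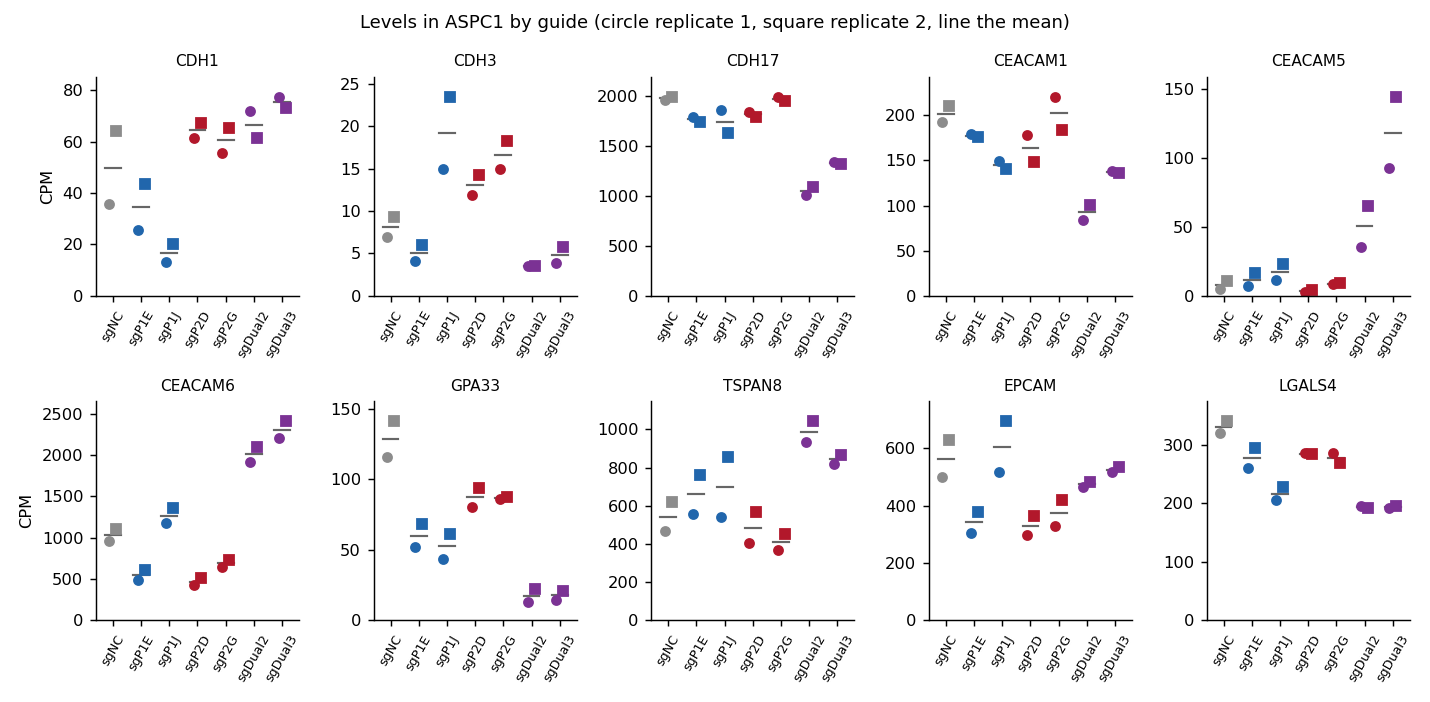
CPM of the 10 adhesion genes in each ASPC1 library by guide, each panel with its own linear axis from 0 and a line at the mean of the 2 libraries. With sgDual2 and sgDual3, GPA33, CDH17, CEACAM1 and LGALS4 lie under all sgNC libraries and CEACAM5, CEACAM6 and TSPAN8 above them, and sgP1E and sgP1J stand apart for CDH3, CEACAM6 and EPCAM.

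The guides named for a single promoter changed few of these genes against sgNC. With the sgP1 guides GPA33 was at 52.1 and 68.0 CPM (sgP1E) and 43.5 and 61.5 CPM (sgP1J), all under the control's 116 and 141 (log2 fold change -1.19, SE 0.20, adjusted p = 0.0258). It was the only 1 of the 10 past the threshold, where 0.265% of all genes tested changed. That share rests on few genes and moves widely, with 45 genes called, 1 without sgNC replicate 2 and 1242 without guide sgP1J. That GPA33 call was lost without sgNC replicate 1 (0.15), sgNC replicate 2 (0.378) or sgP1E replicate 1 (0.0716), with no low-count filter (0.0783) and with only the 2 groups in the fit (0.0859). The GPA33 call held with the replicate block (adjusted p = 0.00032), which called 127 of the 16992 genes tested. LGALS4 was under both control libraries in all 4 sgP1 libraries (206 to 294 CPM), as were 6.92% of all genes tested. Its log2 change was -0.42 (SE 0.10, adjusted p = 0.121), and it passed in DESeq2 (0.0212). At an unadjusted p under 0.05, 3 of the 10 genes were lower with sgP1 (GPA33, LGALS4 and CDH1), as were 3.74% of all genes tested, and the median log2 fold change was -0.22, against 0.01 over all genes.

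With the sgP2 guides none of the 10 genes passed the threshold against sgNC in edgeR or in DESeq2, where 3.42% of all genes tested changed. CEACAM6, GPA33, EPCAM and LGALS4 were lower at an unadjusted p under 0.05, as were 8.19% of all genes tested. In each of the 4 all sgP2 libraries were under both sgNC libraries, as for 15.6% of all genes tested. CEACAM6 was at 427 to 734 CPM with sgP2 (log2 fold change -0.84, SE 0.34, adjusted p = 0.227) and EPCAM at 299 to 419 CPM (-0.68, SE 0.25, adjusted p = 0.161). GPA33 was at 80.1 to 94.1 CPM (-0.56, SE 0.20, adjusted p = 0.148) and passed with the replicate block (0.0129), which made it 1 of 10, where 5.72% of all genes passed. With 7 groups by guide, 4 of the 10 passed, CEACAM6 among them (0.000227), and 11.2% of all genes. The median log2 fold change was -0.26 over the 10 genes and 0.00 over all genes.

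Between the single-promoter guides, CDH1 was higher with sgP2 than with sgP1, at 55.7 to 67.3 CPM against 13.3 to 43.3 CPM (log2 change 1.28, SE 0.29, adjusted p = 0.0322). The CDH1 call was lost in 10 of the alternatives (adjusted p up to 0.171), among them without sgP2D replicate 1 (0.08) or 2 (0.0662), sgP2G replicate 1 (0.0608) or 2 (0.0627), or sgP1J replicate 2 (0.0871). It was the only 1 of the 10, where 4.30% of all genes tested changed, and the median was 0.15 against -0.01. With the replicate block 3 of the 10 passed, GPA33 (0.00123, higher with sgP2) and TSPAN8 (0.00309, lower with sgP2) among them, and 7.09% of all genes.

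Against either single-promoter group, sgDual shifted 8 of the 10 genes, in 2 comparisons that use the same sgDual libraries. Relative to sgP1, CDH1, CEACAM5 and CEACAM6 were higher and CDH3, CDH17, CEACAM1, GPA33 and LGALS4 lower, where 38.3% of all genes tested changed (median -0.14 over the 10, -0.01 over all). Relative to sgP2, CEACAM5, CEACAM6 and TSPAN8 were higher and CDH3, CDH17, CEACAM1, GPA33 and LGALS4 lower, where 46.4% changed (median -0.18 over the 10, -0.01 over all). CEACAM5 was 5.87-fold higher than with sgP1 (log2 fold change 2.55, SE 0.51, adjusted p = 0.00241) and 13.4-fold higher than with sgP2 (3.75, SE 0.55, adjusted p = 0.000218). CEACAM6 was 3.73-fold higher than with sgP2 (1.90, SE 0.30, adjusted p = 0.000279), and there the call held in every alternative. GPA33 was 3.22-fold lower than with sgP1 (-1.69, SE 0.17, adjusted p = 1.29e-05) and 4.97-fold lower than with sgP2 (-2.31, SE 0.18, adjusted p = 5.06e-07).

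CDH3 was lower with sgDual (3.47 to 5.72 CPM) than with sgP2 (11.8 to 18.3 CPM; log2 change -1.83, SE 0.46, adjusted p = 0.00664) and than with sgP1 (4.12 to 23.4 CPM; -1.53, SE 0.46, adjusted p = 0.0213). The second of these overlapped with sgP1E, and it was lost without guide sgP1J (-0.26, adjusted p = 0.427) and without either library of sgP1J (0.0561 and 0.0553) or of sgDual2 (0.0554 and 0.056). CEACAM1 against sgP1 (-0.49, SE 0.16, adjusted p = 0.0236) was lost without sgP1E replicate 1 (0.0658) or 2 (0.0588), or sgDual2 replicate 1 (0.0596) or 2 (0.0696). TSPAN8 against sgP1 (0.43, SE 0.17, adjusted p = 0.0554) and EPCAM against sgP2 (0.51, SE 0.21, adjusted p = 0.0605) passed only in some alternatives, the replicate block included (0.0019 and 0.0434).

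**Figure D4:**
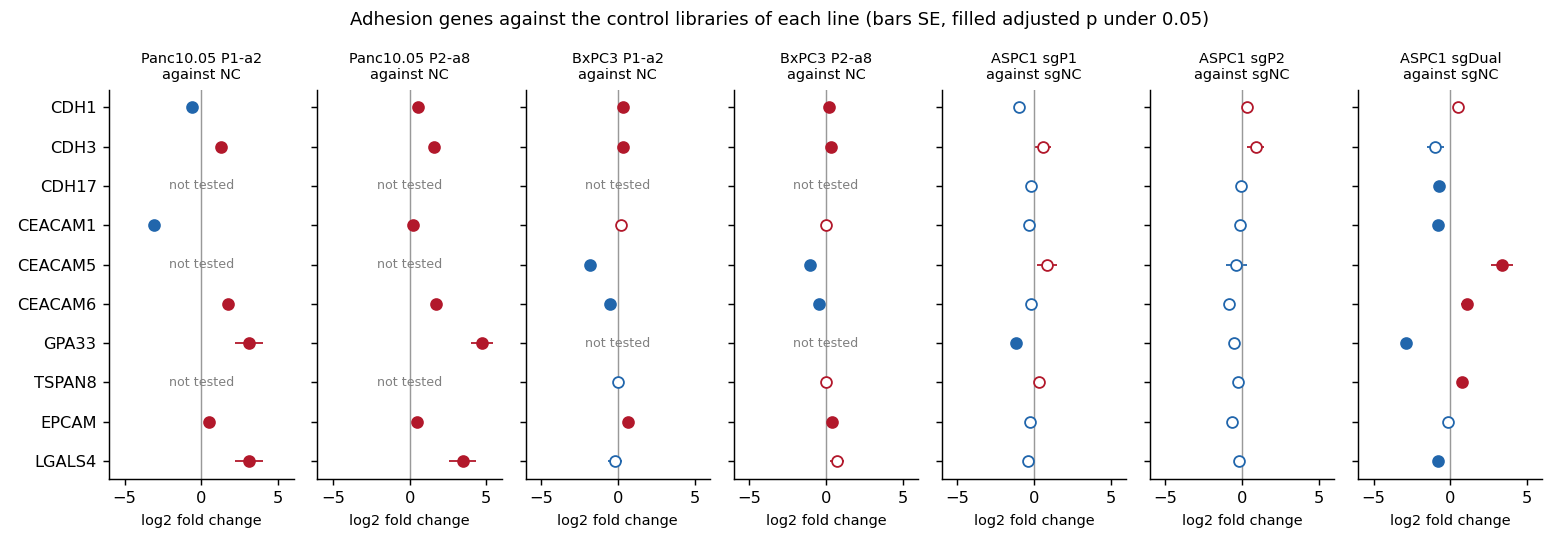
Log2 fold change of each adhesion gene against the control of its line, in 7 comparisons, with bars of 1 SE and filled symbols at an adjusted p under 0.05 in edgeR. CEACAM1 lies far to the left with P1-a2 in Panc10.05, CEACAM5 is left of 0 with both isoforms in BxPC3 and right of 0 with sgDual in ASPC1, and GPA33 is left of 0 with sgDual.

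The 2 guides named for P1 gave different adhesion profiles. CDH3 was at 4.12 and 5.99 CPM with sgP1E and 14.95 and 23.4 CPM with sgP1J (log2 fold change -1.94, SE 0.26, adjusted p = 0.000502), on either side of the control's 6.94 and 9.34. CEACAM6 was at 485 and 612 CPM with sgP1E and 1174 and 1356 CPM with sgP1J (-1.21, SE 0.13, adjusted p = 4.82e-05), again on either side of the control. EPCAM was at 305 and 378 CPM with sgP1E and 516 and 694 CPM with sgP1J (-0.83, SE 0.17, adjusted p = 0.00756), and LGALS4 was at 261 and 294 CPM with sgP1E and 206 and 227 CPM with sgP1J (0.36, SE 0.08, adjusted p = 0.0081). The EPCAM call was lost without sgP1E replicate 1 (0.0722) or sgP1J replicate 2 (0.076), and the LGALS4 call without sgP1J replicate 1 (0.053) or sgP1E replicate 2 (0.106). Thus 4 of the 10 genes differed, where 14.5% of all genes tested did, and the sgP1 group averages 2 guides that are unlike for these genes. HNF4A was at 144 and 146 CPM with sgP1E and 118 and 109 CPM with sgP1J. The median over the 10 genes was -0.03, against 0.00 over all genes.

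Guides of the other pairs were closer. Between sgP2D and sgP2G none of the 10 genes passed the threshold in edgeR, where 1.69% of all genes tested did, 2 were lower at an unadjusted p under 0.05 (5.10% of all genes tested) and DESeq2 called 1 (365 genes in all). That 1 was CEACAM6, at 427 and 512 CPM with sgP2D and 642 and 734 CPM with sgP2G (log2 fold change -0.55, SE 0.13, adjusted p = 0.051, and 7.61e-06 with the replicate block, which called 2 of the 10 and 4.58% of all genes). Between sgDual2 and sgDual3 CEACAM1 was lower with sgDual2 (-0.57, SE 0.11, adjusted p = 0.0239), where 0.883% of all genes tested differed. It was lost without sgDual2 replicate 1 (0.384), sgDual3 replicate 1 (0.218) or sgDual3 replicate 2 (0.167). CDH17, at 1008 and 1093 CPM with sgDual2 and 1341 and 1322 CPM with sgDual3 (-0.34, SE 0.08, adjusted p = 0.0576), and CEACAM5 (-1.24, SE 0.48, adjusted p = 0.499) passed with the replicate block (0.00386 and 0.00434), which called 3 of the 10 and 3.28% of all genes. The medians over the 10 genes were -0.15 and -0.19, against 0.01 and 0.00 over all genes.

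Replicates of ASPC1 deviated together for several of these genes. CEACAM5, CEACAM6, GPA33, TSPAN8 and EPCAM were higher in replicate 2 than in replicate 1 with all 7 guides, by 1.08 to 2.35 times for CEACAM5 and 1.06 to 1.59 times for TSPAN8. CDH17 and CEACAM1 were higher in replicate 2 with 2 of the 7 guides. What the replicate number stands for is not given in the labels.

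Other genes of the same families and pathways, from 7 lists, are counted against the shares of all genes given above for the same comparisons. Of the partners that tie cadherins to the cell (10 catenin, plakoglobin, vinculin, afadin and nectin genes), 1 rose and 5 fell with P1-a2 in Panc10.05, and 4 rose and 2 fell with P2-a8. The nectin gene NECTIN4 fell with P1-a2 from 14.5 to 7.17 CPM in the mean (log2 fold change -1.01, SE 0.12, adjusted p = 5.23e-09) and rose with P2-a8 to 26.6 CPM (0.87, SE 0.11, adjusted p = 2.93e-08), the 2 directions that CDH1 took. The p120 catenin gene CTNND1, whose protein steadies CDH1 at the membrane, fell with P1-a2 as well (-0.57, SE 0.07, adjusted p = 1.49e-09). In BxPC3 4 partners rose and 1 fell with P1-a2, CTNNB1 (0.54, SE 0.06, adjusted p = 3.15e-05) and CTNNA1 (0.46, SE 0.06, adjusted p = 0.00017) among those that rose. In ASPC1 9 partners were tested and with sgDual 1 rose and 1 fell, NECTIN1 from 256 to 125 CPM (-1.04, SE 0.21, adjusted p = 0.00225). The desmosomal plakoglobin gene JUP was at 581 CPM with sgP1E and 185 CPM with sgP1J in the mean (1.65, SE 0.21, adjusted p = 0.000454). The median log2 fold change of the partners was -0.12, 0.12, 0.16 and 0.10 in the comparisons with P1-a2 and P2-a8 in Panc10.05, P1-a2 in BxPC3 and sgDual.

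Other cadherin genes were mostly too low to test, with 1 of 9 tested in Panc10.05, 5 in BxPC3 and 2 in ASPC1. CDH11, a mesenchymal cadherin, rose in BxPC3 from 34.8 to 79.4 CPM with P1-a2 (log2 fold change 1.19, SE 0.08, adjusted p = 1.56e-06) and to 53.2 CPM with P2-a8 (0.61, SE 0.08, adjusted p = 0.00107). CDHR2, a protocadherin of intestinal microvilli, fell with sgDual from 161 to 21.9 CPM (-2.88, SE 0.15, adjusted p = 2.17e-08). Among the other CEACAM genes, 1 of 3 tested rose with sgDual and none fell, and CEACAM19 in Panc10.05 rose with P1-a2 (0.35, SE 0.10, adjusted p = 0.00241).

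Other tetraspanins rose with TSPAN8 in part: with sgDual, 9 of 15 tested rose and none fell, CD63 from 300 to 540 CPM (log2 change 0.85, SE 0.09, adjusted p = 7.42e-06), TSPAN13 (1.22, SE 0.21, adjusted p = 0.000544) and TSPAN1 (0.72, SE 0.15, adjusted p = 0.00201) among them. Their median log2 fold change was 0.56. In Panc10.05 2 of 16 rose and 8 fell with P1-a2 and 9 rose and 2 fell with P2-a8, and CD81 rose with both, from 10.4 CPM to 93.2 (3.17, SE 0.08, adjusted p = 1.15e-31) and 79.7 CPM (2.94, SE 0.08, adjusted p = 4.78e-30). In BxPC3 4 of 15 rose and 3 fell with P1-a2 and none changed with P2-a8.

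Galectins other than LGALS4 went both ways with sgDual, with 2 of 5 tested higher and 1 lower. LGALS2 fell from 46.3 to 7.98 CPM (log2 change -2.53, SE 0.38, adjusted p = 0.00037), while LGALS9 rose from 1.98 to 12.2 CPM (2.62, SE 0.40, adjusted p = 0.000272) and LGALS8 rose too (1.07, SE 0.13, adjusted p = 2.42e-05). LGALS9 rose in Panc10.05 with P1-a2 (2.14, SE 0.15, adjusted p = 2.66e-16) and P2-a8 (2.38, SE 0.15, adjusted p = 2.51e-17), and fell in BxPC3 with P1-a2 (-2.02, SE 0.17, adjusted p = 8.21e-06) and P2-a8 (-1.19, SE 0.16, adjusted p = 0.00121).

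Of the 5 genes listed as linked to EPCAM, 1 rose and 4 fell with P1-a2 in Panc10.05, where EPCAM itself rose. CLDN7, a claudin that EPCAM binds, fell with P1-a2 (log2 change -0.46, SE 0.07, adjusted p = 2.03e-07) and rose with P2-a8 (0.43, SE 0.07, adjusted p = 9.44e-07). In BxPC3 SPINT2, an inhibitor of the protease that cleaves EPCAM, rose with P1-a2 (0.62, SE 0.05, adjusted p = 8.74e-06). With sgDual CLDN7 fell from 68.7 to 39.3 CPM (-0.80, SE 0.19, adjusted p = 0.00544), while EPCAM did not pass the threshold.

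Among 16 transcriptional and splicing regulators of epithelial adhesion genes, 7 of the 11 tested rose and 3 fell with P1-a2 in Panc10.05, and 9 rose and 1 fell with P2-a8. SNAI2, a repressor of CDH1, rose with P1-a2 from 27.1 to 81.9 CPM (log2 change 1.6, SE 0.07, adjusted p = 4.78e-22), rose less with P2-a8, where CDH1 rose, to 38.0 CPM (0.49, SE 0.08, adjusted p = 9.03e-07), and was higher with P1-a2 than with P2-a8 (1.11, SE 0.07, adjusted p = 1.68e-16). GRHL2, an activator of CDH1, was lower with P1-a2 than with P2-a8 (-1.16, SE 0.07, adjusted p = 1.29e-16), as was the epithelial splicing regulator gene ESRP1 (-1.06, SE 0.06, adjusted p = 8.52e-18). In BxPC3, where CDH1 rose, GRHL2 fell with P1-a2 (-0.58, SE 0.06, adjusted p = 4.89e-05). With sgDual 2 of 12 rose and 2 fell, and CDX2, an intestinal regulator, was higher with sgDual than with sgP2 (1.21, SE 0.21, adjusted p = 0.000395). Between the P1 guides, 1 of 12 regulators tested was higher with sgP1E and 3 were lower. ESRP1 was at 1.40 CPM with sgP1E and 13.6 CPM with sgP1J (-3.35, SE 0.47, adjusted p = 0.00106) and ESRP2 at 3.65 and 17.4 CPM (-2.28, SE 0.18, adjusted p = 3.1e-06). ZEB1 was at 50.5 and 33.8 CPM (0.58, SE 0.16, adjusted p = 0.0339). With sgP1E, CDH3, CEACAM6 and EPCAM were lower and LGALS4 higher, and CDH1, at means of 34.5 and 16.7 CPM, did not pass the threshold. Whether these regulators have a part in the differences of the adhesion genes was not tested.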

How the data were processed

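RNA of 26 libraries from 3 PDAC cell lines was extracted with Trizol and a column, enriched for poly(A) RNA, prepared with the NEBNext Ultra II Directional kit and sequenced as read pairs on a NovaSeq instrument, per the labels' protocols. The authors deposited whole-number counts per Ensembl gene in 1 table per line. The submitters' processing notes name cutadapt 1.16, STAR 2.7.9a, featureCounts 1.6.3, DESeq2 1.36.0 and GRCh38, without parameters. The strand setting, the handling of multiply mapped reads and the annotation release are not given in the sources used here. Every table line names a gene, and symbols were matched for 99.88% (Panc10.05, BxPC3) and 99.91% (ASPC1) of identifiers.

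From these counts, low genes were removed with filterByExpr (edgeR) given each table's groups, libraries were scaled by TMM and differences tested with edgeR's robust quasi-likelihood F test. Within a table, the spread was estimated jointly over all groups, and p-values were adjusted by Benjamini and Hochberg's method over all genes tested (threshold 0.05). In the main ASPC1 tests the libraries of both guides of a target formed 1 group, so that differences between its guides count as spread between libraries. Guides of 1 target were compared in a fit with 7 groups by guide, and responses of Panc10.05 and BxPC3 by an interaction contrast in 1 fit of their 12 libraries. CPM per kb used merged exon lengths of GENCODE v29. A group in which no library exceeded 3 counts of a gene was taken as at the floor, which covers counting error only. The test was tried on simulated counts whose changed genes were drawn from those that pass the filter, so the filter itself was not checked. The simulated libraries were independent, so shared replicate deviations and differences between guides of a target were not covered.

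All 10 adhesion genes are reported in each comparison, and of each other list at most 3 genes per comparison, those past the threshold with the largest change and a mean of at least 5 CPM, though some that this rule picks are not reported here. The members, lists and tests were chosen with earlier results of these data known. Replicate libraries differed by more than sampling noise (chi-square per degree of freedom 5.08 to 24.07). The deviations of same-numbered libraries correlated at 0.17 to 0.31 over the 3 pairs of groups in BxPC3, 0.18 to 0.58 over the 21 pairs of guides in ASPC1 and -0.03 to 0.02 in Panc10.05. The numbers were therefore taken to pair libraries in BxPC3 and ASPC1, from the data and not from a label. Alternatives were other size factors, no low-count filter, DESeq2, the replicate block, fewer or more groups in the fit, and each library or guide left out.

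Tests used edgeR 4.0.16 with limma 3.58.1, and DESeq2 1.42.0, in R 4.3.3. Tables, figures and alignments used pandas 2.3.3, matplotlib 3.10.9 and Biopython 1.88 (global alignment with match 1, mismatch -1, gap opening -2 and extension -0.5) in Python 3.11.15.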

Additional observations from a re-analysis of the deposited data

Results flagged for a closer look

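In ASPC1, LGALS4 in replicate 2 of sgP2G, at 268.3 CPM, lay below the other 3 sgP2 libraries (284 to 287 CPM). The difference is small, and the gap took up 0.86 of a narrow range, above Dixon's critical value for 4 libraries. Of 30 groups examined this was the only such library, and chance flags about 1 in 20.

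Several responses differed between Panc10.05 and BxPC3 by a test of the difference itself (log2, Panc10.05 minus BxPC3). For P1-a2 these were CDH1 (-0.93), CDH3 (0.89), CEACAM1 (-3.27), CEACAM6 (2.26) and LGALS4 (3.25). For P2-a8 they were CDH1 (0.32), CDH3 (1.27) and CEACAM6 (2.12). For P1-a2 against P2-a8 they were CDH1 (-1.26), CEACAM1 (-3.47) and EPCAM (-0.30). CEACAM6 and LGALS4 did not reach the count filter's level in the Panc10.05 control, so their differences are given as a description. LGALS4 had at most 17 counts a library in the contrast for P1-a2. The LGALS4 call, the CDH1 call for P2-a8 and the EPCAM call were each lost with 1 library left out, as given above. Cell line, doxycycline dose, control construct and the number at the start of the library titles differ together and cannot be told apart in these values.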

How the results depend on the processing

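Where a library was left out of a group of 2, the lone library was assumed to vary like the other groups. The number of adhesion genes past the threshold, with 1 library left out at a time, ran from 2 to 4 for P2-a8 against the control in BxPC3 (5 with all libraries), from 0 to 2 for sgP1 against sgNC (1), from 4 to 6 for sgDual against sgNC (7), from 0 to 3 for sgP2 against sgP1 (1) and from 0 to 1 for sgDual2 against sgDual3 (1). These counts lack the share over all genes and do not set the adhesion genes apart from others. For sgP1 against sgNC the number was 2 in DESeq2 (241 genes in all), 0 with only the 2 groups (7 in all) and 4 without guide sgP1J (1242 in all). It was 2 with 7 groups by guide and 3 without guide sgP1E, and no alternative called more than 1242 genes in all. For sgP2 against sgNC (0) it was 3 with only the 2 groups (1103 genes in all) and 4 with 7 groups (1905 in all). For sgP2 against sgP1 it was 0 with no low-count filter (665 genes in all), 3 in DESeq2 (1233 in all) and 5 without guide sgP1E (2764 in all). It was 3 with 7 groups and 0 without guide sgP2D or sgP2G, where the alternatives called 189 to 2764 genes in all. Between sgP1E and sgP1J (4, with 2467 genes in all) it was 7 with no filter (3009 in all). Between sgP2D and sgP2G (0) it was 3 with no filter (649 genes in all) and 1 in DESeq2 (365 in all). Between sgDual2 and sgDual3 it was 2 with total counts alone (147 genes in all), 3 with no filter (417 in all) and 2 in DESeq2 (198 in all).

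With the replicate block the counts were 4 for P1-a2 against P2-a8 in BxPC3 (2 without it), 1 for sgP2 against sgNC (0), 3 for sgP2 against sgP1 (1), 2 for sgP2D against sgP2G (0), 3 for sgDual2 against sgDual3 (1) and 5 for the difference of the lines in response to P2-a8 (3). That last block called 5444 of the 19372 genes tested (4545 without it), and it joins a line whose numbers pair with 1 whose numbers do not. There it brought LGALS4 (0.0452) and TSPAN8 (0.0425) past the threshold, and in the other contrasts of the lines CDH3 (0.000634) and EPCAM (0.0244). Between guides it also called CEACAM1 for sgP1E against sgP1J (0.0438) and CEACAM5 for sgP2D against sgP2G (0.0349). Beside these and the blocked values given with the results, it changed no other call of an adhesion gene. In Panc10.05 it changed none.

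Values that changed sign were below the threshold with all libraries. Without guide sgP1E, the log2 fold change was 0.29 for CEACAM6 and 0.10 for EPCAM in sgP1 against sgNC, -0.36 for CDH3 in sgP2 against sgP1 and -0.26 for EPCAM in sgDual against sgP1. Without guide sgP1J, CEACAM6 was at 0.08 and EPCAM at 0.05 in sgP2 against sgP1. With 1 library left out at a time, CEACAM6 in sgP1 against sgNC ran from -0.45 to 0.02, CEACAM5 in sgP1E against sgP1J from -1.30 to 0.02, EPCAM in sgDual against sgP1 from -0.08 to 0.32 and HNF4A in sgDual2 against sgDual3 from -1.54 to 0.48. The cause was not tested. Over all genes tested, the number called also moved, from 581 to between 57 (without sgNC replicate 2) and 1905 (7 groups by guide) for sgP2 against sgNC, and from 731 to between 189 (only the 2 groups) and 2764 (without guide sgP1E) for sgP2 against sgP1.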
